A study of Mus musculus with 18 samples.

Results

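The genes described here are 34 genes of the endoplasmic reticulum (ER) and the unfolded protein response, picked by their symbols from the 16474 genes of the expression table. All 34 were present and all 34 passed the filter on low values, so no member is missing from the counts. By role they are 9 chaperones and co-chaperones of the HSP70 and HSP90 systems, 4 disulfide isomerases, 2 lectin chaperones, 3 stress sensors with 1 transcription factor, 6 genes for the degradation of misfolded proteins, and 9 genes of the translocon, the translocon-associated complex and signal peptidase. RNA sequencing was done on mouse bone marrow-derived macrophages in 18 libraries, 3 in each of 6 groups. The groups cross 2 genotypes, wild type (WT) and p110g-/-, with 3 stimuli (n = 3 libraries in every value below). The labels give strain C57BL/6 and an age of 8 weeks for the mice. The gene lost in p110g-/- is Pik3cg, which encodes the p110 gamma catalytic subunit of class IB PI3-kinase; the labels do not say which exons were removed or in which cells. In all groups marrow cells first spent 6 days with M-CSF, the growth factor of macrophages, at 50 ng/ml. M-CSF at 20 ng/ml was then present in every group: alone for 24 h, together with IFNg and 100 ng/ml LPS for 24 h, or, for 48 h, together with IL-4 at 20 ng/ml. IFNg/LPS gives the inflammatory state of macrophages and IL-4 the alternative state. Since IL-4 was given for 48 h and its M-CSF control for 24 h, the stimulus and the longer culture cannot be told apart in any IL-4 comparison.

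Secreted and membrane proteins enter the ER through the Sec61 channel, lose their signal peptide, are folded with the help of Hspa5 (BiP), Hsp90b1, the disulfide isomerases and the lectin chaperones, and leave for the Golgi. When unfolded protein builds up, 3 sensors respond: Ern1 (IRE1), which splices Xbp1 mRNA, Eif2ak3 (PERK), which phosphorylates the translation factor eIF2 alpha, and Atf6, which is cleaved to a transcription factor. Xbp1 and Atf6 are known to raise many of the genes described here. In myeloid and other secretory cells this machinery also grows with the load of secreted protein. The values below are sums over each gene, so spliced and unspliced Xbp1 are not told apart, and cleavage of Atf6 protein is not seen.

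The deposited values are read counts divided by 1 size factor per library (normalised signal). They are not per gene length, so levels are compared between groups for 1 gene and not between genes. The libraries held 40.1 to 69.6 M reads counted on genes, and the members' values ran from 415 (Herpud1) to 80614 (Calr). Counting error, as a coefficient of variation from the recovered reads, was 0.329% to 4.77% (median 1.31%) over the 204 pairs of a member and a group, beside a median spread between libraries of 5.06%. In 10 of the 204 pairs the spread was at or below the counting error, among them Eif2ak3 in WT M-CSF (0.110% and 2.29%) and Herpud1 in WT IFNg/LPS (4.11% and 4.37%). Of the macrophage markers, 8 of 9 symbols were present, and their summed signal ran from 450218 to 1044320 over all libraries, led by Lyz2. Nos2, a landmark of the inflammatory state, read 191041 to 303567 in the IFNg/LPS libraries and at most 109.0 elsewhere, and Retnla, a landmark of the IL-4 state, read 160556 to 697974 in the IL-4 libraries and at most 95.2 elsewhere. Pik3cg itself was lower in p110g-/- under M-CSF (log2 difference -1.41, limma adjusted p = 0.0027) and under IL-4 (-1.63, adjusted p = 6.3e-04), with no overlap between genotypes. Under IFNg/LPS it read 3560, 2309 and 2604 in WT and 3691, 1411 and 2037 in p110g-/- (log2 difference -0.34, adjusted p = 0.37). For the targeted gene, number 1 of the libraries labelled p110g-/- IFNg/LPS was thus above all 3 WT libraries of that stimulus. Arg1, a further landmark gene, read 551, 593 and 518 in WT IFNg/LPS and 103.5, 74 and 77 in p110g-/- IFNg/LPS. What these values say of the label was not tested. Reads outside the deleted part of Pik3cg would still be counted, so the check by that gene is limited. The results on p110g-/- IFNg/LPS were also computed without library number 1. For the IFNg/LPS response in p110g-/-, 0 of the 34 calls then changed and the log2 fold changes moved by at most 0.20 (P4hb, median 0.039). For the genotype comparison under IFNg/LPS 3 calls changed, given with those results. Whether the replicates are separate mice or cultures is not stated in the labels, so p-values measure only the spread between these libraries.

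Because many of these genes are known targets of the same transcription factors, their promoters were searched first. The known ER stress response element has a CCAAT box, bound by NF-Y, set 9 bases before CCACG, where Atf6 and Xbp1 bind. RefSeq promoters (GRCm38.p6, from 250 bases before to 50 after the transcription start) were available for 27 of the 34 members. The letters searched, on both strands, were CCAAT, then 9 bases of any kind, then CCACG. They were found in 8 of the 27 members (29.6%) and in 37 of the 27025 genes with a promoter window (0.137%). Counted by window, they were in 39 of all 32851 promoters (0.119%). The sites are shown with 10 bases on each side, 5′ to 3′ on the gene's own strand, with the fixed letters in capitals; sites that read CGTGG before ATTGG lie on the other strand.
Calr (chr8:84847065-84847103, minus strand): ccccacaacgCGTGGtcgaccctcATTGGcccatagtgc
Canx (chr11:50325790-50325828, minus strand): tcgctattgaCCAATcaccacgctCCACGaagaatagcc
Creld2 (chr15:88819510-88819548, plus strand): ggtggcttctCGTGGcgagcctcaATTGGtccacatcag
Dnajc3 (chr14:118937817-118937855, plus strand): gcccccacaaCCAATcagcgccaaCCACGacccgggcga
Hsp90b1, far site (chr10:86705628-86705666, minus strand): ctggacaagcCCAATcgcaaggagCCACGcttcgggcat
Hsp90b1, near site (chr10:86705523-86705561, minus strand): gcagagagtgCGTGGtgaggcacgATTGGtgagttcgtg
Hspa5 (chr2:34772015-34772053, plus strand): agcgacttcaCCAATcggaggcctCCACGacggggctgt
Pdia6 (chr12:17266481-17266519, plus strand): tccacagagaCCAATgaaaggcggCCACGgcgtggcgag
Syvn1 (chr19:6046522-6046560, plus strand): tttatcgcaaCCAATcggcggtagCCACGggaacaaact

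These 8 genes span 4 roles: 4 chaperones (Hspa5, Hsp90b1, Dnajc3, Creld2), both lectin chaperones, the isomerase Pdia6, and Syvn1, the ubiquitin ligase of ER degradation. The sites lie within 212 bases of the start, and Hsp90b1 holds a pair of them in opposite directions. A second known form of the element was searched on both strands as ATTGG, then any 1 base, then CCACG. It was found in 2 members (7.41%), Dnajb11 and Herpud1, and in 12 of the 27025 genes (0.0444%). By window, it was in 12 of all promoters (0.0365%). The Dnajb11 site lies after the start, within the searched window, and its letters are not shown. The Herpud1 site lies 52 to 42 bases before its start.
Herpud1 (chr8:94386367-94386397, plus strand): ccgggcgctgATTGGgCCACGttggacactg

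No promoter of a member held both forms. The core of the element of the unfolded protein response, TGACGTGG on either strand, was in 0 of the 27 members. It was in 193 of the 27025 genes (0.714%) and, by window, in 222 of all promoters (0.676%). A match is a description of letters, not evidence of binding, and the absence of a match says only that these letters are not in the window. The 250 bases before the start are shown for Hspa5, the ER HSP70, for Herpud1, on which the genotype results turn, and for Pdia4, which changed most under IL-4 and held neither form, again with matches in capitals.
Hspa5 (chr2:34771840-34772089, plus strand): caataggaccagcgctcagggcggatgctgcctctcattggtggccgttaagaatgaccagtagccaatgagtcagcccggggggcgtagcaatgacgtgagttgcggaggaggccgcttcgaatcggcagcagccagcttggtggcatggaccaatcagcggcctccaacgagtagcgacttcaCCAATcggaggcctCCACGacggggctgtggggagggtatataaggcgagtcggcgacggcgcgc
Herpud1 (chr8:94386179-94386428, plus strand): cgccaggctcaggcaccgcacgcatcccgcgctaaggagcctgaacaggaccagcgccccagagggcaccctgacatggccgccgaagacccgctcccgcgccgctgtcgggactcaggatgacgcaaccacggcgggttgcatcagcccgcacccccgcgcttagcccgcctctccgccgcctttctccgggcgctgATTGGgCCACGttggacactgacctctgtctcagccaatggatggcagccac
Pdia4 (chr6:47813513-47813762, minus strand): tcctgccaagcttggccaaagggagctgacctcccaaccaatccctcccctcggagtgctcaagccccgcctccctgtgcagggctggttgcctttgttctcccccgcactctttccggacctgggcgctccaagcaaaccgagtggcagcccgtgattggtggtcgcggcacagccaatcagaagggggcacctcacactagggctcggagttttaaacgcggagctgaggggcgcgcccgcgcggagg

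Under IL-4 most of the ER machinery rose. Of the 34 members, 29 rose, 1 fell (Atf6) and 4 did not pass the test in WT macrophages, where 22.9% of all 15627 genes tested rose, 21.1% fell and 43.9% changed in either direction. In p110g-/- macrophages the counts were again 29, 1 and 4, where 22.7% of all genes rose, 21.2% fell and 43.9% changed. The members called in WT were the members called in p110g-/-, 100% of each list. As the members were chosen with earlier results of these data known, their counts beside all genes describe the list. The median log2 fold change of the members was 0.67 in WT and 0.63 in p110g-/-, beside 0.00 and -0.01 for all genes, and 28 of the 34 lay above the upper quartile of all genes in each genotype. Tests are limma fits over all genes and all 18 libraries, with Benjamini-Hochberg adjustment at 0.05. In bulk RNA, a change in the number of cells that express a gene and a change in RNA per cell cannot be told apart. The summed signal of the macrophage marker list was 501406 to 553576 in WT IL-4 and 883966 to 1044320 in WT M-CSF. Of its genes Itgam went the other way (65822 to 69767 in WT IL-4 and 47372 to 53766 in WT M-CSF). The neutrophil list (8 of 8 genes, led by Ngp) summed to 1959 to 8483 and 2547 to 10802 in the same groups, with none of its genes at 0 in all 3 libraries of a group. The B and plasma cell list (8 of 9 genes) summed to 6530 to 7571 in WT IL-4 and 3424 to 6158 in WT M-CSF, without overlap, and to 6516 to 8451 and 8019 to 10645 in p110g-/-, with overlap. Sdc1 alone gave 6128 to 7379 of the WT IL-4 sums and 2928 to 5943 of the WT M-CSF sums, while no other gene of the list passed 117 in WT IL-4 (Ms4a1) or 211 in WT M-CSF (Cd79b). Cd79b went the other way in WT without overlap (39.8 to 100 in IL-4 and 122 to 211 in M-CSF), and the remaining genes overlapped. The T and NK cell list (4 of 7 genes) summed to 285 to 497 in WT IL-4 and 1484 to 2713 in WT M-CSF, led by Cd4, with Cd3d at 5.9 to 15.8 and 7.6 to 14.9. The mast cell and basophil list (5 of 7 genes) summed to 353 to 631 and 265 to 352 in the same WT groups, and to 167 to 169 and 110 to 243 in p110g-/-. The part of these lists in the IL-4 result was not tested.

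Summed over all 34 genes, the share of library reads was 0.637% ± 0.00772 (SD, n = 3) in WT M-CSF, 0.530% ± 0.0231 in WT IFNg/LPS and 1.06% ± 0.0187 in WT IL-4. In p110g-/- it was 0.651% ± 0.0167, 0.569% ± 0.0308 and 1.13% ± 0.0349; without the library labelled p110g-/- IFNg/LPS number 1 the other 2 of that group had 0.540% and 0.566%. IL-4 libraries thus gave a larger share of their reads to these genes than every library of the other stimuli. For IFNg/LPS the direction depends on the scale: the share of reads was below M-CSF in each genotype, while the summed normalised signal was above it (294112 in M-CSF and 347244 in IFNg/LPS for WT, 303163 and 350149 for p110g-/-).

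**Figure D1:**
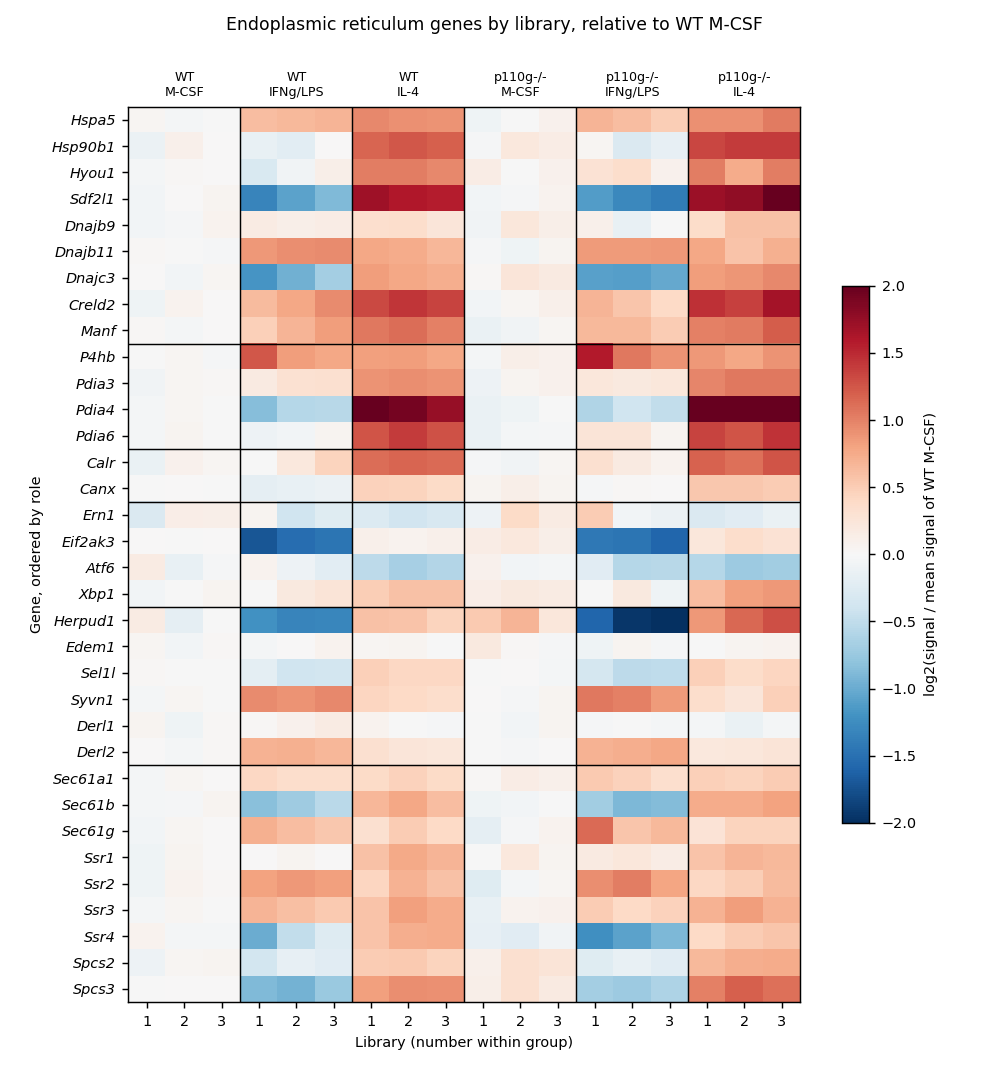
Signal of each of the 34 genes in each of the 18 libraries, as log2 of the ratio to the WT M-CSF mean; columns are libraries 1 to 3 within each group and horizontal lines separate the roles. Colours end at 2 and -2. The IL-4 columns are red in nearly every row in both genotypes, while the IFNg/LPS columns hold both red and blue rows.

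All 9 chaperones and co-chaperones rose under IL-4 in each genotype, with a median log2 fold change of 1.00 in WT and 0.97 in p110g-/-. Hspa5, the ER HSP70 that also holds the sensors inactive, read 33814, 31938 and 32837 in WT M-CSF and 64295, 61737 and 61081 in WT IL-4. In p110g-/- it read 30938, 32538 and 34694 in M-CSF and 62045, 61803 and 67866 in IL-4. Every IL-4 library was above every M-CSF library, and the log2 fold changes were 0.92 ± 0.07 (SE) in WT (1.90-fold, adjusted p = 8.3e-08) and 0.97 ± 0.07 in p110g-/-. Sdf2l1, which works with the DnaJ co-chaperones to keep clients soluble, read 2579, 2708 and 2779 in WT M-CSF and 8676, 8150 and 8010 in WT IL-4. Its groups were far apart, at 3.08-fold in WT (1.62 ± 0.11) and 3.62-fold in p110g-/- (1.86 ± 0.11), the largest IL-4 increase among the chaperones in each genotype.

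Creld2, an isomerase-like protein secreted on ER stress, rose 2.59-fold in WT and 2.77-fold in p110g-/-. Hsp90b1, the ER HSP90, rose 2.30-fold and 2.41-fold. Manf, a stress-induced cofactor of Hspa5, rose 2.08-fold and 2.20-fold, and Hyou1, a nucleotide exchange factor for Hspa5, 2.00-fold and 1.81-fold. The DnaJ proteins, which bring clients to Hspa5, moved less: Dnajc3 rose 1.71-fold in WT, Dnajb11 1.65-fold and Dnajb9 1.24-fold (0.31 ± 0.08, adjusted p = 0.0069). Dnajb9 had the smallest increase of the 9, with 2035, 2065 and 2207 in WT M-CSF against 2639, 2695 and 2499 in WT IL-4, groups that still did not overlap.

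The 4 disulfide isomerases and both lectin chaperones rose as well. Pdia4, which forms and reshuffles disulfide bonds, read 3569, 3740 and 3634 in WT M-CSF and 15568, 13771 and 12141 in WT IL-4. The p110g-/- values were 3311, 3420 and 3640 in M-CSF and 15556, 15136 and 18685 in IL-4. These were the largest IL-4 changes of all 34 genes, 3.77-fold in WT (1.91 ± 0.10, adjusted p = 3.2e-09) and 4.74-fold in p110g-/- (2.25 ± 0.10, adjusted p = 3.7e-10). The difference between the genotypes, 0.33 ± 0.14, did not pass the test (adjusted p = 0.62). Pdia6 rose 2.48-fold in WT, Pdia3, the partner of the lectin chaperones, 1.88-fold, and P4hb, which also serves collagen hydroxylation, 1.75-fold. Calr (calreticulin), the soluble lectin chaperone of glycoproteins, went from 30809, 35586 and 34648 to 72733, 75873 and 73512 in WT, 2.20-fold, while its membrane-bound relative Canx (calnexin) rose 1.35-fold.

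**Figure D2:**
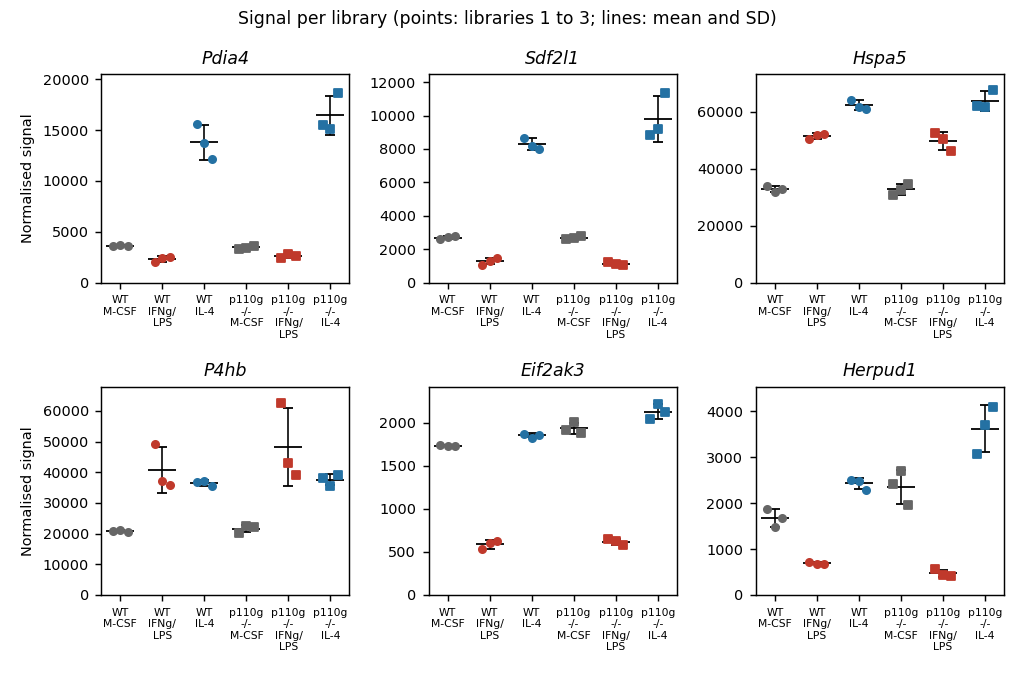
Normalised signal of 6 genes in every library (points, libraries 1 to 3 from left to right) with the mean and SD of each group (lines); circles are WT, squares p110g-/-, grey M-CSF, red IFNg/LPS and blue IL-4. Pdia4, Sdf2l1 and Hspa5 are highest in IL-4, Eif2ak3 and Herpud1 are lowest in IFNg/LPS, and P4hb in IFNg/LPS has 1 high library in each genotype.

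The sensors behaved differently from the chaperones under IL-4. Xbp1 was the 1 gene of the 4 that rose, 1.47-fold in WT (0.56 ± 0.09, adjusted p = 9.8e-05) and 1.51-fold in p110g-/-. Its values were 5303, 5457 and 5725 in WT M-CSF against 7752, 8275 and 8282 in WT IL-4, with no overlap. Atf6 fell by 0.59 on the log2 scale in WT (± 0.10, 1.51-fold lower, adjusted p = 2.8e-04), from 8923, 7192 and 7821 to 5538, 5009 and 5302. In p110g-/- it was 1.58-fold lower. Ern1 had a log2 fold change of -0.31 ± 0.17 in WT and -0.36 ± 0.17 in p110g-/-, neither past the test (adjusted p = 0.15 and 0.091). The p110g-/- call was made without the p110g-/- M-CSF library number 1 (adjusted p = 0.042) or without p110g-/- IFNg/LPS number 1 (adjusted p = 0.041). It was also made in the fit of those groups alone (adjusted p = 0.041). In the fit of libraries numbered 2 and 3 only, Ern1 was called lower in WT (-0.48, adjusted p = 3.3e-04) and in p110g-/- (-0.46, adjusted p = 4.5e-04). Eif2ak3 had 0.09 ± 0.06 and 0.14 ± 0.06, also not past the test (adjusted p = 0.26 and 0.0999); without WT IFNg/LPS number 1 the second was (adjusted p = 0.047).

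Of the 6 degradation genes, 4 rose under IL-4. Herpud1, a membrane protein that assembles the degradation complex, rose 1.45-fold in WT (0.54 ± 0.13) and 1.54-fold in p110g-/-. Sel1l and its partner ligase Syvn1 rose 1.35-fold and 1.31-fold in WT, and Derl2, a channel component, 1.20-fold. Edem1, the mannosidase-like lectin that hands glycoproteins to degradation, and Derl1 had log2 fold changes of 0.03 ± 0.06 and 0.02 ± 0.06 in WT, with overlapping groups. All 9 genes of protein entry rose, with a median log2 fold change of 0.67 in WT and 0.60 in p110g-/-. Spcs3, a subunit of signal peptidase, rose most (1.85-fold in WT), from 5357, 5406 and 5425 to 9495, 10244 and 10170. The 3 Sec61 channel subunits rose 1.33-fold (Sec61a1), 1.61-fold (Sec61b) and 1.33-fold (Sec61g), and the 4 Ssr genes of the translocon-associated complex 1.49-fold to 1.64-fold.

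**Figure D3:**
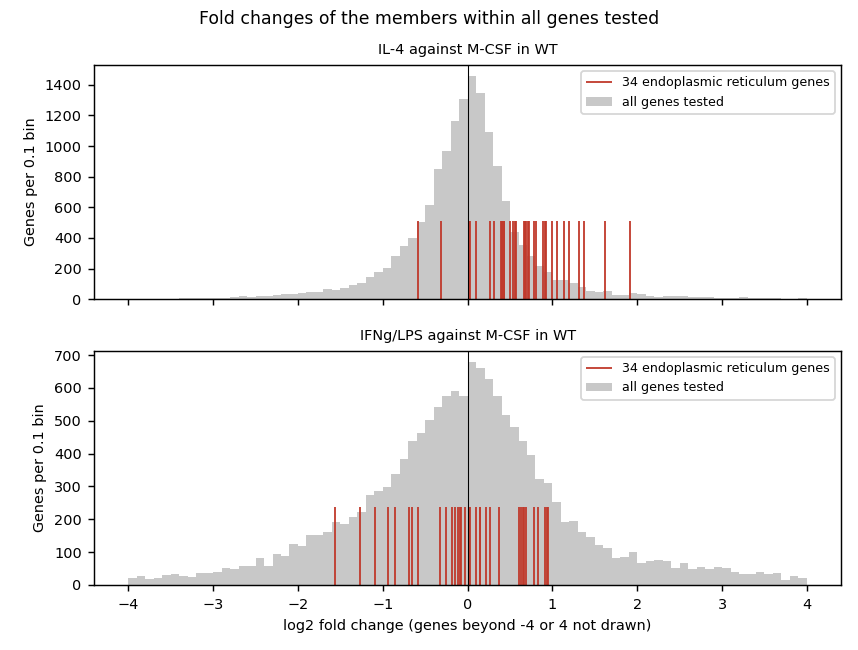
Log2 fold change in WT of the 34 genes (red lines) over the histogram of all genes tested (grey, genes per bin of 0.1). For IL-4 the red lines lie mostly right of 0 with a median of 0.67, while for IFNg/LPS they spread to both sides with a median of 0.02.

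Under IFNg/LPS the same machinery split. Of the 34 members, 12 rose, 11 fell and 11 did not pass in WT, where 73.8% of all genes changed, 36.3% up and 37.5% down. In p110g-/-, 13 rose, 12 fell and 9 did not pass, where 73.0% of all genes changed, 36.2% up and 36.8% down. The members' share of calls, 23 and 25 of 34, was thus near that of all genes, and their median log2 fold change was 0.02 in WT and -0.03 in p110g-/-. With upper quartile scaling, which moves the median of all genes by -0.14 in WT and -0.13 in p110g-/-, the counts were 11 up and 13 down in WT and 11 up and 17 down in p110g-/-. Without the library labelled p110g-/- IFNg/LPS number 1 the counts in p110g-/- were again 13 up and 12 down. Of the 12 genes that rose in WT, 12 rose in p110g-/- (100% of the WT list and 92.3% of the other), and 10 genes fell in both (90.9% and 83.3%). The IFNg/LPS and IL-4 comparisons of a genotype share their M-CSF libraries, so their values are set side by side only.

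The neutrophil list summed to 276 to 497 in WT IFNg/LPS, with Elane and Retnlg at 0, beside 2547 to 10802 in WT M-CSF, and to 261 to 344 beside 4393 to 11148 in p110g-/-. Its genes did not all fall: Ly6g was higher in each genotype (WT 15.9 to 17.7 beside 0 to 1.5). Cxcr2 was higher in WT (158 to 186 beside 131 to 141) and overlapped in p110g-/-. The dendritic cell list (6 of 6 genes, led by Ccr7) summed to 1559 to 4932 in WT IFNg/LPS beside 287 to 332 in WT M-CSF, with Cd209a at 0, and to 7906 to 20746 beside 335 to 645 in p110g-/-. Ccr7 gave 979 to 3926 of the IFNg/LPS sums in WT and 7190 to 19983 in p110g-/-, and Xcr1 561 to 948 and 646 to 668. Flt3, Siglech and Cd209a were lower than under M-CSF in each genotype. The B and plasma cell list summed to 11803 to 14717 in WT IFNg/LPS beside 3424 to 6158, and to 16046 to 24058 beside 8019 to 10645 in p110g-/-. Of these IFNg/LPS sums Sdc1 gave 11666 to 14601 and 15830 to 23973, and no other gene of the list passed 35.4 in WT (Ms4a1) or 94.5 in p110g-/- (Igj). Cd79b (WT 17.4 to 18.7 beside 122 to 211) and Tnfrsf17 were lower than under M-CSF in each genotype without overlap, as was Igj in p110g-/-. The T and NK cell list summed to 406 to 446 beside 1484 to 2713 in WT and to 251 to 297 beside 1496 to 1859 in p110g-/-, led by Cd4. The macrophage list summed to 643541 to 706599 in WT and 589905 to 690110 in p110g-/-, below M-CSF in each genotype. Lyz2, Cd68 and Csf1r were lower in each (WT Lyz2 270570 to 316775 beside 530822 to 646372). Fcgr1 and Cd14 were higher in each (WT Fcgr1 62930 to 70931 beside 9265 to 15316). Itgam and Mertk were higher in WT and Emr1 in p110g-/-, with overlap in the other genotype. The stromal list summed to 287 to 357 and 339 to 574, also below, while its genes Dcn and Lum were higher in each genotype. The part of these in the IFNg/LPS results was not tested.

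Among the chaperones, 4 rose and 2 fell in WT. Dnajb11 rose 1.89-fold (0.92 ± 0.06, adjusted p = 1.1e-09), from 4746, 4642 and 4561 in M-CSF to 8505, 8855 and 8955, levels above those in WT IL-4 (7929, 7809 and 7335). Creld2 rose 1.72-fold, Manf 1.58-fold and Hspa5 1.57-fold, and each of these 3 stayed below its IL-4 level in every WT library. Sdf2l1 fell by 1.09 on the log2 scale (2.13-fold lower), to 1078, 1282 and 1456. Dnajc3, the inhibitor of eIF2 alpha kinases that also acts as a co-chaperone, was 1.92-fold lower in WT and 2.33-fold lower in p110g-/- (2.32-fold without the library labelled p110g-/- IFNg/LPS number 1). Hsp90b1 had -0.11 ± 0.09 in WT (not past the test; -0.26 and adjusted p = 0.017 with upper quartile scaling) and fell by 0.25 in p110g-/- (adjusted p = 0.022). That call was lost without p110g-/- M-CSF number 2 or 3 (adjusted p = 0.094 and 0.065) or p110g-/- IFNg/LPS number 2 or 3 (adjusted p = 0.12 and 0.057). Hyou1 and Dnajb9 passed in neither genotype, at -0.09 and 0.15 in WT and 0.17 and -0.12 in p110g-/-. Hyou1 passed in p110g-/- without p110g-/- IFNg/LPS number 3 (adjusted p = 0.0498), and Dnajb9 without p110g-/- M-CSF number 1 (adjusted p = 0.044) or with upper quartile scaling (-0.25, adjusted p = 0.014).

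The isomerases went both ways. P4hb read 20731, 21288 and 20455 in WT M-CSF and 49254, 37215 and 35711 in WT IFNg/LPS, 1.94-fold higher (0.95 ± 0.14, adjusted p = 1.8e-05). The p110g-/- values were 62573, 43151 and 38958 under IFNg/LPS, 2.18-fold higher than M-CSF. The library numbered 1 was the highest in each genotype, and the coefficient of variation of 26.1% in p110g-/- IFNg/LPS was the largest of any member in any group. Without the library labelled p110g-/- IFNg/LPS number 1, the log2 fold change in p110g-/- was 0.92 (adjusted p = 2.9e-06). Pdia4, the gene that rose most under IL-4, fell under IFNg/LPS to 2029, 2449 and 2494 in WT, 1.58-fold lower (-0.66 ± 0.10), and was 1.34-fold lower in p110g-/- (1.29-fold without the library labelled p110g-/- IFNg/LPS number 1). Pdia3 rose 1.20-fold in WT and 1.15-fold in p110g-/-; with upper quartile scaling neither passed (adjusted p = 0.082 and 0.27), and the p110g-/- call was also lost without p110g-/- M-CSF number 1 (adjusted p = 0.063). Pdia6 had -0.03 ± 0.07 in WT (-0.17 and called lower with upper quartile scaling, adjusted p = 0.037) and rose by 0.26 ± 0.07 in p110g-/-, a call lost with upper quartile scaling (adjusted p = 0.11); the difference of 0.29 ± 0.10 did not pass (adjusted p = 0.15).

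Calr had 0.22 ± 0.10 in WT (adjusted p = 0.061), with WT IFNg/LPS values of 33495, 39049 and 46003 that overlap M-CSF; without the first of these libraries it passed (adjusted p = 0.0057). In p110g-/- it had 0.20 ± 0.10 (adjusted p = 0.086), and passed without WT IFNg/LPS number 1 or 3 (adjusted p = 0.044 and 0.046). Canx fell by 0.15 in WT (adjusted p = 0.015), a call lost in the fit of those groups alone (adjusted p = 0.077), and had -0.08 ± 0.05 in p110g-/-, where it was called lower with upper quartile scaling (-0.20, adjusted p = 0.0026).

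Of the 34 genes, the sensor Eif2ak3 had the smallest adjusted p under IFNg/LPS in each genotype. It read 1735, 1731 and 1733 in WT M-CSF and 532, 606 and 627 in WT IFNg/LPS, 2.95-fold lower (-1.56 ± 0.06, adjusted p = 9.5e-12). In p110g-/- it read 1915, 2003 and 1879 in M-CSF and 646, 630 and 579 under IFNg/LPS, 3.13-fold lower (-1.64 ± 0.06), or 3.20-fold without number 1 of these. No M-CSF library came near an IFNg/LPS library in either genotype, and the IL-4 values of 1866, 1823 and 1861 in WT lay just above M-CSF. Ern1, Atf6 and Xbp1 had log2 fold changes of -0.18 ± 0.17, -0.08 ± 0.10 and 0.15 ± 0.09 in WT, none past the test. Xbp1 passed without WT IFNg/LPS number 1 (adjusted p = 0.031). In p110g-/-, Atf6 fell by 0.45 (adjusted p = 8.9e-04; by 0.56 without the library labelled p110g-/- IFNg/LPS number 1) and Ern1 had -0.04, or -0.24 without that library (adjusted p = 0.86 and 0.18). With the libraries numbered 2 and 3 only, Ern1 was called lower in WT (-0.45, adjusted p = 2.3e-04) and in p110g-/- (-0.36, adjusted p = 0.0012). Xbp1 had -0.13 ± 0.09 in p110g-/- (adjusted p = 0.17). Xbp1 passed as lower there without p110g-/- IFNg/LPS number 2 (adjusted p = 0.034) and with upper quartile scaling (-0.26, adjusted p = 0.011).

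Of the degradation genes, Syvn1 rose 1.91-fold in WT and 1.94-fold in p110g-/-, and Derl2 1.61-fold and 1.67-fold. Sel1l, the partner of Syvn1, fell in both genotypes, 1.25-fold and 1.36-fold lower. The p110g-/- values without the library labelled p110g-/- IFNg/LPS number 1 were 1.88-fold for Syvn1, 1.69-fold for Derl2 and 1.41-fold lower for Sel1l. Herpud1 fell by 1.27 on the log2 scale in WT and by 2.33 in p110g-/-, described with the genotype below. Edem1 and Derl1 passed in neither genotype, with log2 fold changes between -0.09 and 0.09. With upper quartile scaling both were called lower in p110g-/-, Edem1 at -0.21 (adjusted p = 0.0092) and Derl1 at -0.14 (adjusted p = 0.034). Among the entry genes, subunits of 1 complex went opposite ways. Sec61g and Sec61a1 rose 1.54-fold and 1.29-fold in WT while Sec61b was 1.62-fold lower. Ssr2 and Ssr3 rose 1.77-fold and 1.52-fold while Ssr4 fell by 0.58 on the log2 scale, and Ssr1 had 0.03 ± 0.06. The signal peptidase genes Spcs2 and Spcs3 were 1.19-fold and 1.82-fold lower. In p110g-/- each of these entry genes was called in the direction it had in WT, Ssr1 apart, which passed in p110g-/- only without p110g-/- M-CSF number 2 (adjusted p = 0.0495).

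**Figure D4:**
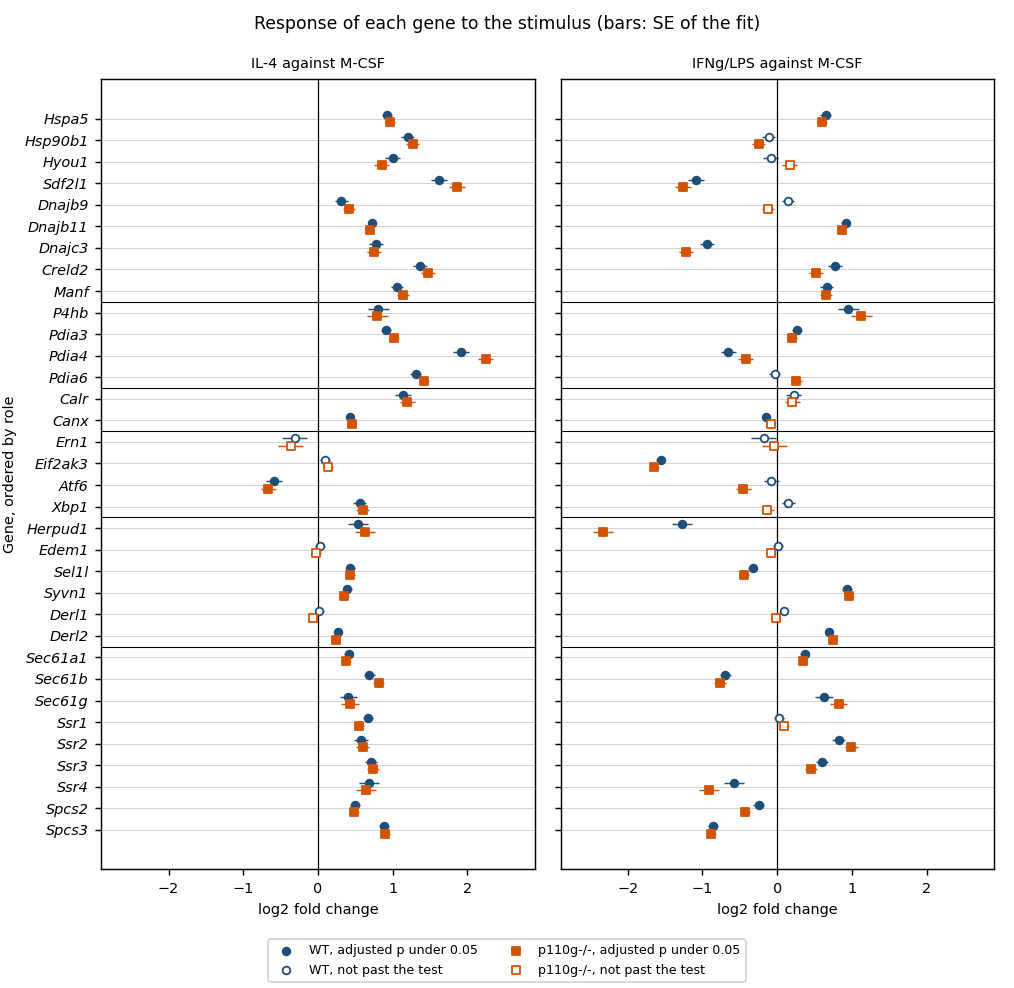
Log2 fold change of each gene against M-CSF under IL-4 (left) and IFNg/LPS (right) in WT (blue circles) and p110g-/- (orange squares), with SE bars; filled symbols passed the test. Both panels share the M-CSF libraries of their genotype; under IL-4 29 genes are filled on the right in each genotype, and under IFNg/LPS Herpud1 shows the widest gap between genotypes.

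The genotype comparison asked whether these genes depend on p110 gamma. Under M-CSF, 0 of the 34 members passed in limma, beside 2.34% of all genes. At unadjusted p under 0.05 there were 4 (Herpud1, Spcs2, Spcs3 and Eif2ak3), beside 13.2% of all genes. On the recovered reads edgeR called 0 members and DESeq2 2, beside 383 and 679 of all genes. Leaving out the p110g-/- M-CSF library number 3 or the p110g-/- IFNg/LPS library number 1 gave 1 call each, Herpud1 (adjusted p = 0.030 and 0.043). Under IL-4, 1 member passed, Herpud1, which was higher in p110g-/-, beside 3.33% of all genes (1.34% higher and 1.99% lower). Under IFNg/LPS, 5 members passed, 14.7% of the 34 beside 14.7% of all genes: Hyou1 and Pdia6 higher, Herpud1, Atf6 and Ssr4 lower in p110g-/-, where 6.94% of all genes were higher and 7.79% lower. The count under IFNg/LPS moved with the fit. It was 0 in a fit of those 6 libraries alone, 6 with the replicate number as a block, 4 higher and 3 lower in DESeq2, and 1 higher and 3 lower in edgeR. It was 2 (Herpud1 and Atf6, both lower) without the library labelled p110g-/- IFNg/LPS number 1, 1 without number 2 of either genotype under IFNg/LPS, and 3 without WT M-CSF number 3 or without WT IL-4 number 2. Dnajc3 and Creld2 passed as lower without WT IFNg/LPS number 1 (adjusted p = 0.047 and 0.0396), and Spcs3 as higher without WT IFNg/LPS number 3 (adjusted p = 0.037).

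Herpud1 was the 1 member called between genotypes in opposite directions under different stimuli. It read 1876, 1488 and 1670 in WT M-CSF and 2408, 2699 and 1962 in p110g-/- M-CSF. Under IL-4 it read 2509, 2492 and 2291 in WT and 3077, 3706 and 4089 in p110g-/-. Under IFNg/LPS it read 726, 675 and 679 in WT and 558, 434 and 415 in p110g-/-. Every p110g-/- library was above every WT library under M-CSF and IL-4 and below every WT library under IFNg/LPS. The log2 differences were 0.48 ± 0.13 under M-CSF (adjusted p = 0.0797, not past the test), 0.57 ± 0.13 under IL-4 (1.48-fold higher, adjusted p = 0.028) and -0.58 ± 0.13 under IFNg/LPS (1.49-fold lower, adjusted p = 0.0091). The IL-4 call was lost without WT IL-4 number 2 or 3 (adjusted p = 0.083 and 0.14) and without p110g-/- IL-4 number 2 or 3 (adjusted p = 0.12 and 0.17). The IFNg/LPS call was lost in the fit of those 6 libraries alone (adjusted p = 0.060), and without the library labelled p110g-/- IFNg/LPS number 1 the difference was -0.71 (adjusted p = 0.0028).

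The test of the difference itself, the interaction of genotype with IFNg/LPS, passed for 1 of the 34 members, Herpud1, beside 2.44% of all genes (1.02% in the positive and 1.42% in the negative direction). Its fall under IFNg/LPS was 2.41-fold in WT and 5.02-fold in p110g-/-, a difference of -1.06 ± 0.19 on the log2 scale (adjusted p = 0.0089). This call held in all 30 alternative fits. Without the library labelled p110g-/- IFNg/LPS number 1 the difference was -1.19 (adjusted p = 0.0029). At unadjusted p under 0.05 there were 6 of the 34, Herpud1 and 5 others (Pdia6, Atf6, Xbp1, Dnajb9 and Dnajc3), beside 17.4% of all genes. With the replicate block Atf6 also passed (-0.37, adjusted p = 0.027), and Ssr4 passed without WT IFNg/LPS number 1 (adjusted p = 0.031). The interaction with IL-4 passed for 0 of the 34 and 0.00% of all genes in limma. At unadjusted p under 0.05 there was 1 member (Pdia4), beside 7.40% of all genes, and edgeR and DESeq2 called 0 members each. The IL-4 rise of Herpud1, 1.45-fold in WT and 1.54-fold in p110g-/-, differed by 0.08 on the log2 scale, which did not pass.

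**Figure D5:**
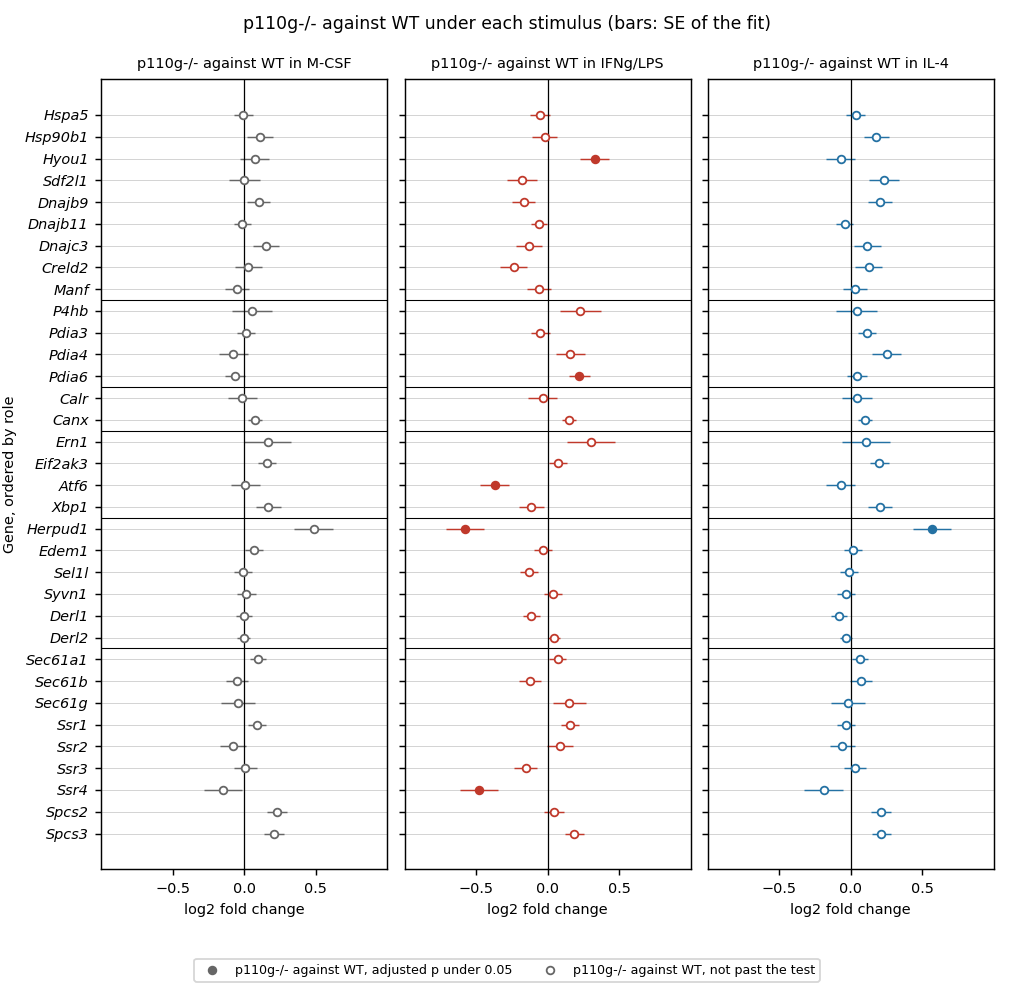
Log2 fold change of p110g-/- against WT for each gene under M-CSF (left), IFNg/LPS (middle) and IL-4 (right), with SE bars; filled symbols passed the test. Most genes lie near 0, and Herpud1 lies right of 0 under M-CSF and IL-4 and left of it under IFNg/LPS.

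The other 4 members with a genotype call under IFNg/LPS had smaller differences. Atf6 read 8368, 7447 and 6859 in WT and 6810, 5375 and 5417 in p110g-/- (-0.37 ± 0.10, adjusted p = 0.024), groups that did not overlap. Without number 1 of p110g-/- the difference was -0.48 (adjusted p = 0.0042). Its call was lost without number 1 or 2 of WT IFNg/LPS (adjusted p = 0.075 and 0.057) and without number 2 or 3 of p110g-/- IFNg/LPS (adjusted p = 0.11 and 0.084). Ssr4 read 1386, 1960 and 2314 in WT and 1185, 1321 and 1477 in p110g-/-, which overlap (-0.48 ± 0.13, adjusted p = 0.026). Its call was lost without number 2 or 3 of WT (adjusted p = 0.0895 and 0.12) and without number 1 or 2 of p110g-/- (adjusted p = 0.080 and 0.072). Hyou1 read 3461, 4043 and 4638 in WT and 5232, 5438 and 4530 in p110g-/-, which also overlap (0.33 ± 0.10, adjusted p = 0.038). Its call was lost without number 1 or 2 of either genotype under IFNg/LPS (adjusted p = 0.086 to 0.15), without WT M-CSF number 3 (adjusted p = 0.051) and without WT IL-4 number 2 (adjusted p = 0.0504). Pdia6 stood at the threshold (0.22 ± 0.07, adjusted p = 0.0495) and passed in 11 of 30 alternative fits, not without number 1 of p110g-/- (adjusted p = 0.13). Under IFNg/LPS the dendritic cell list summed to 1559 to 4932 in WT and 7906 to 20746 in p110g-/-. Ccr7 alone gave 979 to 3926 and 7190 to 19983 of these sums. Xcr1 (561 to 948 and 646 to 668), Flt3, Zbtb46 and Siglech overlapped between genotypes, and Cd209a was 0 in both. Of the macrophage list, Cd14 (18635 to 29075 in WT and 77124 to 101670 in p110g-/-) and Csf1r were higher in p110g-/- without overlap. Fcgr1 (62930 to 70931 in WT and 30059 to 40462 in p110g-/-), Cd68, Lyz2 and Itgam were lower in p110g-/- without overlap. Emr1 and Mertk overlapped. The B and plasma cell list (8 of 9 genes, led by Sdc1) summed to 11803 to 14717 and 16046 to 24058; under M-CSF it summed to 3424 to 6158 and 8019 to 10645, and the stromal list (6 of 6, led by Col1a2) to 388 to 2479 and 1588 to 3619. The part of these in the genotype values was not tested.

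The unfolded protein response reaches beyond the 34 genes, and 80 of 81 further listed genes were in the table. These genes too were listed with earlier results of these data known. Their counts stand beside the shares of all genes given above: 22.9% up and 21.1% down under IL-4 in WT (43.9% in all), and 36.3% up and 37.5% down under IFNg/LPS in WT (73.8% in all). Of 20 other folding and redox genes, 13 rose and 0 fell under IL-4 in WT (median log2 fold change 0.35), with the smallest adjusted p for Txndc11 (0.76), the ER oxidase Ero1lb (0.64) and the isomerase Erp44 (0.47). Under IFNg/LPS 7 rose and 9 fell, with the co-chaperone Dnajc1 (1.33) and the glucosidase II subunit Prkcsh (1.04) higher and the glycoprotein folding sensor Uggt1 (-1.20) lower. Of 23 other genes of entry, glycosylation and export, 18 rose and 1 fell under IL-4 (median 0.36). The oligosaccharyltransferase gene Stt3b rose by 0.97 and fell by 0.73 under IFNg/LPS, where 7 genes of this list rose and 6 fell. In p110g-/- these counts were 11 up and 0 down, and 18 up and 1 down, for IL-4, and 8 up and 8 down, and 8 up and 4 down, for IFNg/LPS, where 36.2% of all genes rose and 36.8% fell. Without the library labelled p110g-/- IFNg/LPS number 1 the latter were 8 up and 7 down, and 7 up and 4 down.

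Of 17 other stress signalling genes, 7 rose and 1 fell under IL-4 in WT (median 0.10), while under IFNg/LPS 10 rose and 4 fell (median 1.32). Bak1, a BCL2 family gene that acts at mitochondria and the ER, had the smallest adjusted p under IFNg/LPS (2.25 ± 0.07), followed by Ppp1r15b (2.16 ± 0.08), the constitutive eIF2 alpha phosphatase subunit. Mbtps1, the site-1 protease that cleaves Atf6, fell by 1.66 (± 0.07), from 3601, 3850 and 3711 to 1053, 1202 and 1282, and had -0.03 ± 0.07 under IL-4. In p110g-/- this list gave 6 up and 2 down under IL-4 and 11 up and 4 down under IFNg/LPS. Of 20 other degradation genes, 4 rose and 4 fell under IL-4 in WT, with Vcp, the segregase that pulls proteins from the membrane, up by 0.48. Under IFNg/LPS 13 rose and 4 fell, among them its cofactor Nploc4 (up by 1.16); p110g-/- gave 4 and 4, and 13 and 5. Leaving out the library labelled p110g-/- IFNg/LPS number 1, the p110g-/- counts under IFNg/LPS were 11 up and 4 down for stress signalling and 13 up and 4 down for degradation.

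Between genotypes under IFNg/LPS, 4 of the folding genes were higher and 3 lower in p110g-/-, beside 6.94% and 7.79% of all genes (14.7% in all). The counts were 0 and 2 for stress signalling, 0 and 1 for degradation and 6 and 0 for entry and export. Without the library labelled p110g-/- IFNg/LPS number 1 these were 5 and 1, 1 and 2, 1 and 1, and 5 and 1. Ddit3 (CHOP), the transcription factor of the terminal stress response, read 4194, 5247 and 5933 in WT and 2759, 2831 and 3303 in p110g-/- under IFNg/LPS, 1.72-fold lower (-0.78 ± 0.15, adjusted p = 0.0023; -0.73 without number 1 of p110g-/-, adjusted p = 0.0081). The groups did not overlap, and in each genotype the IFNg/LPS values were above M-CSF (1311 to 1598 in WT and 906 to 1271 in p110g-/-). Stt3b was 1.35-fold higher (adjusted p = 4.7e-04), and Os9, a lectin of the degradation pathway, was lower under IFNg/LPS (-0.44 ± 0.07) and under M-CSF (-0.28 ± 0.07). Without number 1 of p110g-/- the IFNg/LPS values were 0.44 for Stt3b and -0.47 for Os9, both still called (adjusted p = 0.0012 and 0.0011). The interaction with IFNg/LPS passed for Dnajc1 (0.49 ± 0.12, adjusted p = 0.044) in the fit of all libraries, and for no gene of these lists without the library labelled p110g-/- IFNg/LPS number 1.

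Set against the promoter letters, all 10 members with either form of the ER stress response element rose under IL-4 in WT, with a median log2 fold change of 0.85. Of the 17 members with a promoter and neither form, 14 rose (median 0.56), and Pdia4, the largest of all, was among them. Of the 18 other tested genes with either form, 2 rose and 3 fell (median -0.15), and of all 11494 genes with a promoter 23.4% rose. Under IFNg/LPS in WT, 4 of the 10 rose and 3 fell (Dnajc3, Canx and Herpud1), and 5 of the 17 rose and 7 fell. These counts stand beside 36.7% up and 37.8% down for all genes with a promoter. The members were chosen as known genes of this response, and with earlier results of these data known. The share with the element and the counts are thus a description of the list.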

How the data were processed

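The deposited table gives, per gene and library, normalised signal: per the submitters' processing notes, CASAVA 1.8.2, Bowtie2, DESeq and build mm9 were used, and the steps, counting rule, strand and handling of near-identical genes are not given in the sources used here. From the values, each library's signal is whole read counts times 1 constant: 100% of values lie within 0.1 of a whole multiple, which gives 40.1 to 69.6 M reads per library. A count of 0 allows 3 reads, a signal of 2.15 to 4.74, counting error only. No value column lacked a sample.

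Signal was tested as log2(value + 1) with limma 3.58.1 (R 4.3.3) on genes with at least 10 in at least 3 libraries (15627 of 16474), with 6 group means over 18 libraries, trend and robust moderation, and Benjamini-Hochberg adjustment at 0.05 within each of 9 comparisons. Fold changes are on that scale. Alternatives were edgeR 4.0.16 and DESeq2 1.42.0 on the recovered reads, other pseudocounts, filters and scalings, smaller fits, a replicate block and leaving out each library. The limma step was tested on simulated data. Same-numbered libraries deviated together (correlations over 0.1 for every pair) in the IFNg/LPS genotype comparison (0.256 to 0.546), in the WT responses to IFNg/LPS (0.162 to 0.256) and IL-4 (0.179 to 0.458) and in the p110g-/- IL-4 response (0.187 to 0.397). Elsewhere only number 3 was under 0.1. Numbers 1, 2 and 3 had 0.467, 0.361 and 0.055 for genotype under M-CSF and 0.432, 0.297 and 0.053 under IL-4. They had 0.169, 0.163 and 0.028 for the p110g-/- IFNg/LPS response. What the numbers mark is not stated.

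Named genes are all members, per further list and comparison up to 3 called genes with the smallest adjusted p, and landmark genes. The members and lists were chosen with earlier results of these data known. Promoters are from RefSeq (GRCm38.p6), 32851 windows of 27025 genes, matched by gene identifier, and no coordinates of the files' build were used. Rtcb, listed, was not in the table.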

Additional observations from a re-analysis of the deposited data

Results flagged for a closer look

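The response of Herpud1 to IFNg/LPS differed between the genotypes by a test of the difference itself, -1.06 ± 0.19 on the log2 scale (limma adjusted p = 0.0089). It fell in both, to a mean of 694 from 1678 in WT and to 469 from 2356.5 in p110g-/-, and all 3 p110g-/- libraries lay below all 3 WT libraries under IFNg/LPS. Under M-CSF and IL-4 they lay above. Groups of 3 libraries were not tested for single outlying libraries.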

How the results depend on the processing

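Of 306 gene and comparison pairs of the members, 115 were called and 104 of these calls held in every alternative fit. Over 9180 recomputed values, 67 gained and 55 lost a call, and no called value changed sign. The members' counts of 30 called under IL-4 stayed at 30 or 31 when each library was left out, and those under IFNg/LPS at 23 to 25 in WT and 24 to 26 in p110g-/-. The counts between genotypes moved. For members called in M-CSF, IFNg/LPS and IL-4, the replicate block gave 1, 6 and 2, DESeq2 2, 7 and 5, and libraries numbered 2 and 3 only 2, 9 and 6. Leaving out each library gave 0 to 1, 1 to 5 and 0 to 1, and a fit of the 6 IFNg/LPS libraries 0. For the interaction with IFNg/LPS the members called were 2 with the block, 5 with numbers 2 and 3, and 1 to 2 with each library left out. Over all genes the counts were 365 in M-CSF (block 555, DESeq2 679, numbers 2 and 3 688, each library left out 239 to 430), 2303 in IFNg/LPS (own libraries 708, numbers 2 and 3 4166, left out 1466 to 2728) and 520 in IL-4 (DESeq2 921, numbers 2 and 3 2285, left out 239 to 727). The interaction with IFNg/LPS had 381 genes (own libraries 211, block 716, DESeq2 869, numbers 2 and 3 1708, left out 183 to 633). The interaction with IL-4 had 0 (pseudocount of 5: 7, no trend or robust moderation: 2, block: 8, DESeq2: 64, numbers 2 and 3: 385, left out 0 to 89; edgeR 0; unadjusted p under 0.05: 1156). The cause of these moves was not tested, beyond the smaller fits holding fewer libraries. Under the replicate block, pairing by number changed 4 member calls in all, each a gain: Spcs2 under M-CSF (adjusted p = 0.029) and IL-4 (0.037), Ssr1 under IFNg/LPS (0.039) and the interaction of Atf6 (0.027). It changed no other member call. The lowest count of a member was 360 reads, and in 10 of 204 pairs of a member and a group the spread between libraries was at or below the counting error.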
